A study of Mus with 18 samples.

Results

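Cell cycle entry after injury was followed through 10 genes, taken from the 55416 gene IDs of each count table by their IDs alone. They are the transcription factor gene Myc (ENSMUSG00000022346), the D-type cyclin genes Ccnd1 (ENSMUSG00000070348), Ccnd2 (ENSMUSG00000000184) and Ccnd3 (ENSMUSG00000034165), the inhibitor genes Cdkn1b (ENSMUSG00000003031) and Cdkn1c (ENSMUSG00000037664), the replication genes Pcna (ENSMUSG00000027342) and Mcm2 (ENSMUSG00000002870), and the proliferation markers Mki67 (ENSMUSG00000031004) and Top2a (ENSMUSG00000020914). RNA was sequenced from mouse lens capsules with their attached lens epithelial cells (LECs), the cells that stay behind when the lens fiber cells are removed as in cataract surgery. The 18 libraries form 6 groups of 3: wild type (WT), Egr1KO and FosBcKO mice, each at 0 h and at 6 h post cataract surgery (PCS).

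All groups were labelled C57BL/6, and all mice were 3 to 5 months old and of both sexes. Egr1KO mice lack Egr1 in every tissue. FosBcKO mice carry a floxed Fosb allele that is deleted by the MLR10 cre transgene, which a modified alpha-A crystallin promoter drives in lens cells. Whether the WT mice carried that transgene was not given in the sources used here. The study names another strain beside C57BL/6 in the Egr1KO stock. The MLR10 line was obtained on an FVB/N background and backcrossed to C57BL/6. The part of strain in the genotype comparisons was not tested. Each library pooled 5 capsules, so the spread between libraries is a spread between pools of mice. The count tables do not pair other gene IDs with names, and names that the study gives elsewhere were not used, so the levels of Egr1 and Fosb, which would check the genotype labels, the markers of LECs and of other cell types, and other cell cycle genes were not analysed here.

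A resting cell enters the cycle through G1. Growth signals first raise Myc and then the D-type cyclins, which partner CDK4 and CDK6, while the proteins p27 (from Cdkn1b) and p57 (from Cdkn1c) hold cyclin-CDK complexes back. Genes of DNA replication, such as Pcna and Mcm2, are switched on by E2F factors late in G1, and Mki67 and Top2a mRNA accumulate as cells pass through S phase toward mitosis. In the undisturbed adult lens most LECs are out of the cycle, with dividing cells in a band near the equator.

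Each library held between 9609295 and 13871592 read pairs assigned to genes, and levels are given as CPM, the count divided by this total and multiplied by 1000000. The first principal component of the genes that passed a filter on low counts took 50.8% of the variance and parted 0 h from 6 h libraries. WT 6 h replicate 3 lay farthest to the 6 h side, at 99.4, and Egr1KO 6 h replicate 1 lay nearest to the 0 h libraries, at -5.97, followed by FosBcKO 6 h replicate 3 at 16.5. Read pairs that fell outside annotated genes also took a larger share at 6 h, with means of 25.4% against 17.8% in WT, 21.5% against 11.2% in Egr1KO and 26.3% against 13.2% in FosBcKO. The part of these differences in the results below was not tested.

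Myc rose in all 3 genotypes by 6 h PCS, and no other gene of the group rose. In WT its level was 17.5, 19.1 and 35.2 CPM at 0 h and 94.9, 128 and 52.4 CPM at 6 h. In Egr1KO it was 23.5, 12.6 and 16.5 CPM at 0 h and 69.1, 93.9 and 103 CPM at 6 h. In FosBcKO it was 16.2, 17.1 and 33.8 CPM at 0 h and 59.2, 113 and 70.0 CPM at 6 h. Each of the 9 libraries at 6 h lay above every 0 h library of its genotype. The rise was 3.63-fold in WT (log2 fold change 1.86 ± 0.40 SE, FDR = 0.0149), 5.24-fold in Egr1KO (2.39 ± 0.26, FDR = 0.00197) and 3.63-fold in FosBcKO (1.86 ± 0.41, FDR = 0.0198), by edgeR's quasi-likelihood F-test with the false discovery rate (FDR) taken over all genes tested. These fits did not pair libraries. Whether library numbers mark pairs in WT was not settled. A fit that pairs same-numbered WT libraries (the replicate block) gave 1.82 with an FDR of 0.0610, which misses the threshold of 0.05. Myc also missed it in WT with no filter on low counts (FDR = 0.0985), without WT 0 h replicate 1 (FDR = 0.0566) and, in FosBcKO, without FosBcKO 0 h replicate 2 (FDR = 0.0687).

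**Figure D1:**
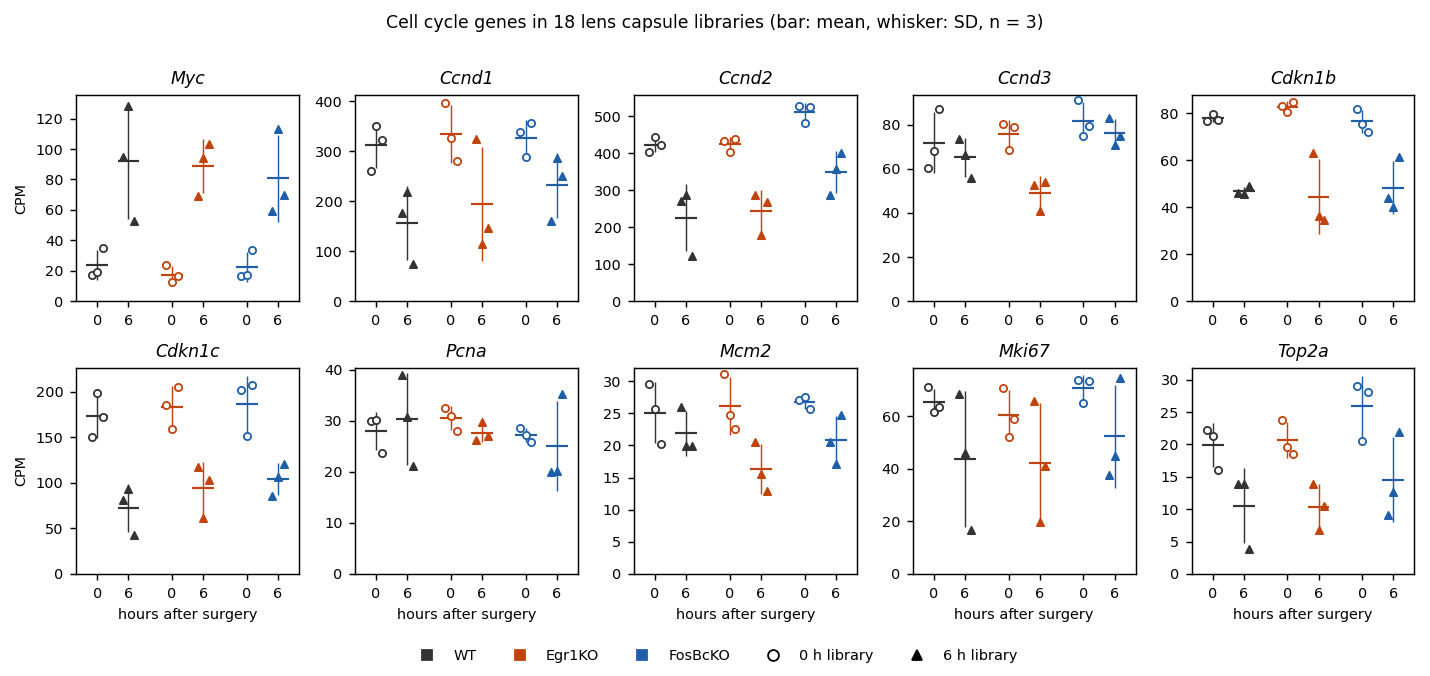
Level of each of the 10 genes in the 18 libraries, as CPM on a linear axis from 0, by hours after surgery. Open circles are 0 h libraries, filled triangles 6 h libraries, colours mark the genotypes, bars are means and whiskers SD over 3 libraries. Every 6 h library lies above all 0 h libraries of its genotype for Myc and below them for Ccnd2, Cdkn1b and Cdkn1c.

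The D-type cyclins did not rise. In the main fits, which do not pair libraries, Ccnd2 fell 1.66-fold in Egr1KO and 1.46-fold in FosBcKO. Ccnd1 and Ccnd3 passed the threshold in no genotype in these fits, and every difference fitted for the 3 cyclins had a negative sign. The level of Ccnd1, the cyclin most closely tied to growth signals, was 262, 351 and 323 CPM in WT at 0 h and 176, 220 and 73.8 CPM at 6 h. Egr1KO libraries held 397, 328 and 281 CPM at 0 h and 325, 114 and 146 CPM at 6 h. FosBcKO libraries held 338, 288 and 357 CPM at 0 h and 160, 286 and 251 CPM at 6 h. The groups were apart in WT, while in Egr1KO the replicate that lay nearest to the 0 h libraries overlapped them. In FosBcKO the CPM values were apart by a small gap that was lost once levels were divided by the TMM scaling factors, where 6 h replicate 2, at 301, lay above 0 h replicate 2, at 278. The log2 fold change was -1.08 in WT (95% interval -1.995 to -0.16, FDR = 0.0805), -0.70 in Egr1KO (-1.61 to 0.20, FDR = 0.229) and -0.48 in FosBcKO (-1.01 to 0.047, FDR = 0.168). With the replicate block the WT value was -1.22 with an FDR of 0.0248, and without Egr1KO 6 h replicate 1 the Egr1KO value was -1.35 with an FDR of 0.00105. Without WT 6 h replicate 3 the WT value was -0.71 with an FDR of 0.0142. With a library left out the Ccnd1 value ran from -1.44 to -0.71 in WT. The range was -1.35 to -0.40 in Egr1KO and -0.76 to -0.29 in FosBcKO.

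Ccnd2, a second D-type cyclin, was measured at 402, 443 and 424 CPM in WT at 0 h and at 271, 287 and 121 CPM at 6 h. In Egr1KO it was 432, 403 and 438 CPM at 0 h and 287, 178 and 267 CPM at 6 h. In FosBcKO it was 527, 481 and 526 CPM at 0 h and 287, 359 and 401 CPM at 6 h. No 6 h library reached a 0 h library of its genotype. The log2 fold change was -0.99 ± 0.34 in WT (FDR = 0.0627), -0.73 ± 0.22 in Egr1KO (FDR = 0.0451) and -0.55 ± 0.18 in FosBcKO (FDR = 0.0494). In WT the replicate block gave -1.10 with an FDR of 0.0190, and the fit without WT 6 h replicate 3 gave -0.65 with an FDR of 0.00380. The calls in the knockouts lie close to the threshold: in Egr1KO the FDR was 0.0503 with RLE size factors, and in FosBcKO it was 0.159 with all 18 libraries in one fit. Ccnd2 missed the threshold without any one of the Egr1KO 0 h libraries or Egr1KO 6 h replicate 3 (FDR 0.0920 to 0.150), and without any one FosBcKO library other than 6 h replicate 3 (FDR 0.0546 to 0.139).

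Ccnd3, the third D-type cyclin, differed least between the times. It ranged from 60.5 to 87.2 CPM at 0 h and from 55.8 to 73.6 CPM at 6 h in WT, from 74.8 to 90.9 CPM and from 70.5 to 82.9 CPM in FosBcKO, and these groups overlapped. In Egr1KO the ranges were 68.6 to 80.2 CPM at 0 h and 40.7 to 54.1 CPM at 6 h, without overlap. Fitted log2 fold changes were -0.24 in WT (FDR = 0.386), -0.56 in Egr1KO (FDR = 0.0616) and -0.10 in FosBcKO (FDR = 0.618). Without Egr1KO 6 h replicate 1 the Egr1KO value was -0.66 with an FDR of 0.0241, and with a library left out it ran from -0.66 to -0.40.

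Both inhibitor genes fell in all 3 genotypes. Cdkn1b, which encodes p27, was 76.8, 79.5 and 77.0 CPM in WT at 0 h and 46.2, 45.6 and 48.8 CPM at 6 h. The Egr1KO values were 83.2, 80.4 and 84.7 CPM at 0 h and 62.9, 36.0 and 34.5 CPM at 6 h. The FosBcKO values were 81.8, 75.5 and 72.1 CPM at 0 h and 43.9, 39.9 and 61.2 CPM at 6 h. Libraries of one group lay close together in WT, and no genotype had an overlap between the times. The fall was 1.79-fold in WT (log2 -0.84 ± 0.13, FDR = 0.00319), 1.78-fold in Egr1KO (-0.83 ± 0.25, FDR = 0.0489) and 1.58-fold in FosBcKO (-0.66 ± 0.17, FDR = 0.0223).

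Cdkn1c, which encodes p57 and is known for its role in cell cycle exit in the lens, was 150.0, 199 and 172 CPM in WT at 0 h and 81.2, 92.8 and 42.9 CPM at 6 h. Egr1KO libraries had 185, 159 and 205 CPM at 0 h and 118, 61.3 and 103 CPM at 6 h. FosBcKO libraries had 202, 152 and 207 CPM at 0 h and 85.8, 106 and 121 CPM at 6 h. Again no 6 h library reached a 0 h library of its genotype. The fall was 2.55-fold in WT (log2 -1.35 ± 0.31, FDR = 0.0176), 1.85-fold in Egr1KO (-0.89 ± 0.27, FDR = 0.0495) and 1.79-fold in FosBcKO (-0.84 ± 0.19, FDR = 0.0149). In Egr1KO neither inhibitor passed with RLE size factors (FDR = 0.0524 for Cdkn1b and 0.0541 for Cdkn1c) or without any one of the 0 h libraries or without 6 h replicate 3, where the FDR lay between 0.0803 and 0.161, and Cdkn1b also missed without 6 h replicate 2 (FDR = 0.0960). In FosBcKO both missed the threshold without 0 h replicate 1 (FDR = 0.0810 for Cdkn1b and 0.0546 for Cdkn1c) or without 0 h replicate 3 (FDR = 0.0645 and 0.0601), as did Cdkn1b without 6 h replicate 2 (FDR = 0.0650) and Cdkn1c with all 18 libraries in one fit (FDR = 0.0593).

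The replication genes did not rise. Pcna, the sliding clamp of DNA polymerase, was 30.0, 30.2 and 23.7 CPM in WT at 0 h and 39.0, 30.7 and 21.1 CPM at 6 h. It ranged from 28.0 to 32.6 CPM at 0 h and from 26.2 to 29.8 CPM at 6 h in Egr1KO, and from 25.9 to 28.6 CPM and from 19.9 to 35.2 CPM in FosBcKO. The times overlapped in every genotype. The log2 fold change was 0.018 in WT (95% interval -0.59 to 0.62, FDR = 0.969), -0.086 in Egr1KO (-0.44 to 0.27, FDR = 0.710) and -0.12 in FosBcKO (-0.63 to 0.39, FDR = 0.728). The upper ends of these intervals lie below a 2-fold rise in each genotype.

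Mcm2, a subunit of the MCM helicase that licenses replication origins, was 29.5, 25.7 and 20.1 CPM in WT at 0 h and 25.9, 19.9 and 19.9 CPM at 6 h. It ranged from 22.5 to 31.2 CPM at 0 h and from 12.9 to 20.5 CPM at 6 h in Egr1KO, and from 25.6 to 27.6 CPM and from 17.1 to 24.7 CPM in FosBcKO. The times did not overlap in either knockout. Fitted log2 fold changes were -0.30 in WT (FDR = 0.334), -0.62 in Egr1KO (FDR = 0.0988) and -0.37 in FosBcKO (FDR = 0.171). Without Egr1KO 6 h replicate 1 the Egr1KO value was -0.87 with an FDR of 0.0151, and with a library left out it ran from -0.87 to -0.47.

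The proliferation markers did not rise either, and both were measured in every library at 0 h. Mki67, which encodes the Ki-67 protein of cycling cells, was 71.1, 61.5 and 63.5 CPM in WT at 0 h and 68.5, 46.1 and 16.9 CPM at 6 h. For Egr1KO the values were 70.6, 51.9 and 58.8 CPM at 0 h and 65.6, 19.8 and 41.0 CPM at 6 h. For FosBcKO the values were 73.7, 65.0 and 73.2 CPM at 0 h and 37.6, 44.8 and 74.6 CPM at 6 h. Each genotype had at 6 h one library at a 0 h level and at least one well below. On the log2 scale the difference was -0.66 in WT (95% interval -1.69 to 0.37, FDR = 0.305), -0.44 in Egr1KO (-1.39 to 0.51, FDR = 0.460) and -0.43 in FosBcKO (-0.96 to 0.090, FDR = 0.208). Without FosBcKO 6 h replicate 3, the library at 74.6 CPM, the FosBcKO value was -0.83 with an FDR of 0.00889. With a library left out the Mki67 value ran from -1.13 to -0.24 in WT. The range was -0.97 to -0.074 in Egr1KO and -0.83 to -0.26 in FosBcKO.

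Top2a, the topoisomerase that untangles replicated chromosomes, was 22.3, 21.3 and 16.1 CPM in WT at 0 h and 13.9, 13.9 and 3.81 CPM at 6 h. In Egr1KO it was 23.8, 19.6 and 18.5 CPM at 0 h and 13.9, 6.78 and 10.5 CPM at 6 h. In FosBcKO it was 29.0, 20.5 and 28.1 CPM at 0 h and 9.10, 12.7 and 21.9 CPM at 6 h. The times were apart in WT and Egr1KO and overlapped in FosBcKO through replicate 3. The lowest value, in WT 6 h replicate 3, rests on 40 read pairs, for which the exact Poisson 95% interval of counting error alone is 2.72 to 5.19 CPM. The log2 fold change was -0.99 ± 0.47 in WT (FDR = 0.152), -0.92 ± 0.31 in Egr1KO (FDR = 0.0661) and -0.83 ± 0.31 in FosBcKO (FDR = 0.0837). With the replicate block the WT value was -1.18 with an FDR of 0.0260. Top2a also passed without Egr1KO 6 h replicate 1 (-1.24, FDR = 0.0108) and without FosBcKO 6 h replicate 3 (-1.30, FDR = 0.00722). With a library left out the Top2a value ran from -1.28 to -0.57 in WT. The range was -1.24 to -0.65 in Egr1KO and -1.30 to -0.60 in FosBcKO. In bulk RNA, fewer cells of a type and less RNA per cell cannot be told apart.

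**Figure D2:**
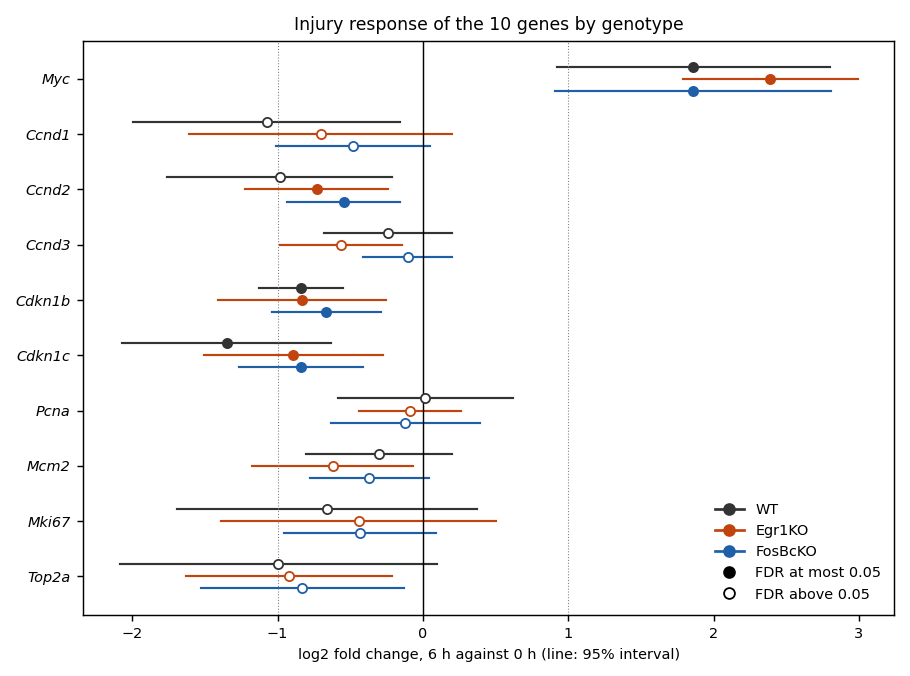
Log2 fold change at 6 h against 0 h for the 10 genes in WT, Egr1KO and FosBcKO. Lines are 95% intervals from the quasi-likelihood fit of 6 libraries each, without pairing of libraries. Filled points have an FDR of at most 0.05 and dotted lines mark a 2-fold change. Myc lies to the right of 0 in each genotype, both inhibitor genes lie to the left with filled points, and Pcna lies near 0.

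Differentially expressed genes (DEGs) had an FDR no higher than 0.05 and a difference above 2-fold. In the main fits, which do not pair libraries, 2 of the 10 genes were DEGs in WT, Myc upward and Cdkn1c downward. Of all genes tested in WT, 13.5% were DEGs upward and 3.65% downward. In each knockout 1 gene was a DEG, Myc, against 9.28% of genes tested upward and 2.69% downward in Egr1KO and 11.2% and 1.90% in FosBcKO. At the FDR alone, 1 gene was higher and 2 lower in WT, where 16.5% of genes tested were higher and 9.72% lower. The count was 1 higher and 3 lower in Egr1KO (12.1% and 9.04% of genes tested) and in FosBcKO (14.1% and 7.70%). With the replicate block WT had 4 DEGs, Ccnd1, Ccnd2, Cdkn1c and Top2a, and 5 genes at the FDR alone, these and Cdkn1b, all of them lower and without Myc. The count at the FDR alone was 5 without WT 6 h replicate 3, 8 without Egr1KO 6 h replicate 1 and 6 without FosBcKO 6 h replicate 3. It was 1 without any one of the Egr1KO 0 h libraries or without Egr1KO 6 h replicate 3, 1 without FosBcKO 0 h replicate 1 or 3, and 2 without WT 0 h replicate 1, FosBcKO 0 h replicate 2 or FosBcKO 6 h replicate 2. Shares of all genes tested were not computed with the replicate block or with a library left out, so these counts have no such baseline. All 10 genes passed the filter on low counts in every comparison.

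Groups at 0 h and 6 h did not overlap for 1 gene upward and 5 downward in WT (28.2% and 19.8% of genes tested), for 1 and 6 in Egr1KO (18.1% and 25.2%) and for 1 and 5 in FosBcKO (22.8% and 20.1%), all in plain CPM. With TMM scaling the FosBcKO count was 1 and 4, without Ccnd1, and the other counts were as given. The median log2 fold change of the 10 genes was -0.75 in WT, -0.66 in Egr1KO and -0.46 in FosBcKO, beside -0.022, 0.0030 and 0.048 over all genes tested.

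A fit of all 18 libraries that averages the 3 genotypes, added after the values above were seen, gave 8 genes at the FDR alone, 1 higher and 7 lower, where 29.6% of genes tested were higher and 22.7% lower. Myc rose 4.13-fold (log2 2.05 ± 0.25, FDR = 1.63e-05). Cdkn1c fell 2.03-fold (log2 -1.02 ± 0.18, FDR = 0.000186) and Cdkn1b 1.70-fold (-0.77 ± 0.12, FDR = 3.92e-05). Ccnd2 fell 1.68-fold (FDR = 0.000985), Ccnd1 1.67-fold (FDR = 0.0191) and Ccnd3 1.23-fold (FDR = 0.0212). Top2a fell 1.87-fold (log2 -0.91 ± 0.25, FDR = 0.00583) and Mcm2 1.34-fold (-0.42 ± 0.12, FDR = 0.00842). Pcna, at -0.053 (95% interval -0.34 to 0.23, FDR = 0.760), and Mki67, at -0.50 (-1.08 to 0.076, FDR = 0.133), did not pass. The Mki67 value passed without WT 6 h replicate 1 (-0.67, FDR = 0.0482) and without Egr1KO 6 h replicate 1 (-0.71, FDR = 0.0376), and Ccnd3 missed without WT 0 h replicate 3 (FDR = 0.0518). With a library left out the Mki67 value ran from -0.71 to -0.38. Myc and Cdkn1c were the 2 DEGs of this fit, in which 19.3% of genes tested were DEGs upward and 3.22% downward. The count of DEGs was 1 without WT 6 h replicate 3, Egr1KO 6 h replicate 2 or FosBcKO 6 h replicate 1, where shares of all genes tested were not computed.

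Whether loss of Egr1 or Fosb shifted these genes was asked at each time. By edgeR's exact test none of the 10 genes differed between Egr1KO and WT or between FosBcKO and WT, at 0 h or at 6 h, with 0 at an unadjusted p under 0.05 in each comparison and 0 at the FDR with DESeq2 or the quasi-likelihood F-test. Of all genes tested, 0.410% were DEGs between Egr1KO and WT at 0 h and 0.736% at 6 h, and 0.295% between FosBcKO and WT at 0 h and 5.41% at 6 h. The FDR alone was passed by 0.543% at 0 h and 0.743% at 6 h in the Egr1KO comparisons, and by 0.392% at 0 h and 6.26% at 6 h in those of FosBcKO. At 0 h the log2 differences ran from -0.41 for Myc (95% interval -1.14 to 0.31) to 0.15 for Pcna in Egr1KO, and from -0.080 for Myc to 0.38 for Top2a (-0.068 to 0.82) in FosBcKO. For Ccnd2 in FosBcKO at 0 h, at 0.27, the interval of the quasi-likelihood fit (0.060 to 0.48) left out 0, while the exact test gave p = 0.102. At 6 h they ran from -0.21 for Mcm2 to 0.59 for Cdkn1c (-0.28 to 1.46) in Egr1KO, and from -0.16 for Pcna to 0.73 for Ccnd2 (-0.11 to 1.58) in FosBcKO. The lowest unadjusted p of these comparisons was 0.0611, for Ccnd2 in FosBcKO at 6 h (FDR = 0.336), where the FosBcKO libraries at 287, 359 and 401 CPM did not overlap the WT libraries at 271, 287 and 121 CPM. With TMM scaling they did, the lowest FosBcKO value being 263 and the highest WT value 284. Without overlap between genotypes were also Cdkn1b in Egr1KO at 0 h, Ccnd3 in Egr1KO at 6 h and Ccnd2 in FosBcKO at 0 h, 1 gene in each comparison, beside 16.5%, 16.9% and 14.2% of genes tested and 21.8% for FosBcKO at 6 h. With TMM scaling Cdkn1b in Egr1KO at 0 h and Ccnd3 in Egr1KO at 6 h overlapped too, Ccnd2 in FosBcKO at 0 h did not, and at 6 h Ccnd3 in FosBcKO was without overlap. Both knockouts were compared with the same WT libraries.

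The response to injury was compared between genotypes as an interaction of time and genotype over all 18 libraries. None of the 10 genes passed in either knockout, with 0 at an unadjusted p under 0.05 and 0 at the FDR with DESeq2. No gene of the 17469 tested passed (0% in both), while 1141 genes for Egr1KO and 1171 for FosBcKO had an unadjusted p under 0.05. For Myc the difference in response was 0.50 in Egr1KO (95% interval -0.78 to 1.78) and -0.059 in FosBcKO (-1.33 to 1.22). For Mki67 it was 0.19 (-1.23 to 1.60) and 0.17 (-1.24 to 1.58). For Cdkn1b, the gene with the tightest WT groups, it was -0.015 (-0.61 to 0.58) and 0.12 (-0.47 to 0.71). For Ccnd1 it was 0.35 (-0.92 to 1.62) and 0.54 (-0.73 to 1.81). The intervals leave room for a difference of more than 2-fold in both knockouts for Myc, Mki67, Ccnd1, Ccnd2, Cdkn1c and Top2a. Those of Ccnd3, Cdkn1b, Pcna and Mcm2 stayed within 2-fold.

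Mki67 and Top2a moved together across the libraries. Over the 18 libraries the Pearson r of log2 CPM was 0.92, and Top2a ranked 9 among 15053 genes by likeness to Mki67. Ccnd2 followed at 0.88 (rank 61) and Ccnd1 at 0.86 (rank 88), and the inhibitor gene Cdkn1c had 0.82 (rank 242), while Pcna had 0.45 (rank 3159) and Myc -0.42 (rank 10530). The IDs most like Mki67 were ENSMUSG00000026605 (r = 0.952) and ENSMUSG00000050700 (r = 0.948), which the tables do not name. Top2a was in turn close to Ccnd2, at 0.95 (rank 4), and to Cdkn1c, at 0.92 (rank 56). These libraries share their time and genotype groups. After each group mean was taken out, r with Mki67 was 0.92 for Top2a (rank 59), 0.91 for Ccnd2 (rank 77), 0.85 for Cdkn1c (rank 239), 0.82 for Ccnd1 (rank 370), 0.62 for Pcna (rank 1384) and 0.26 for Myc (rank 3719). Within groups, 0.385% of genes had a higher r with Mki67 than Top2a had, and 0.505% a higher r than Ccnd2. The share was 1.58% for Cdkn1c, 2.45% for Ccnd1, 9.19% for Pcna and 24.7% for Myc. Other genes thus followed Mki67 within groups more closely than any of these did.

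**Figure D3:**
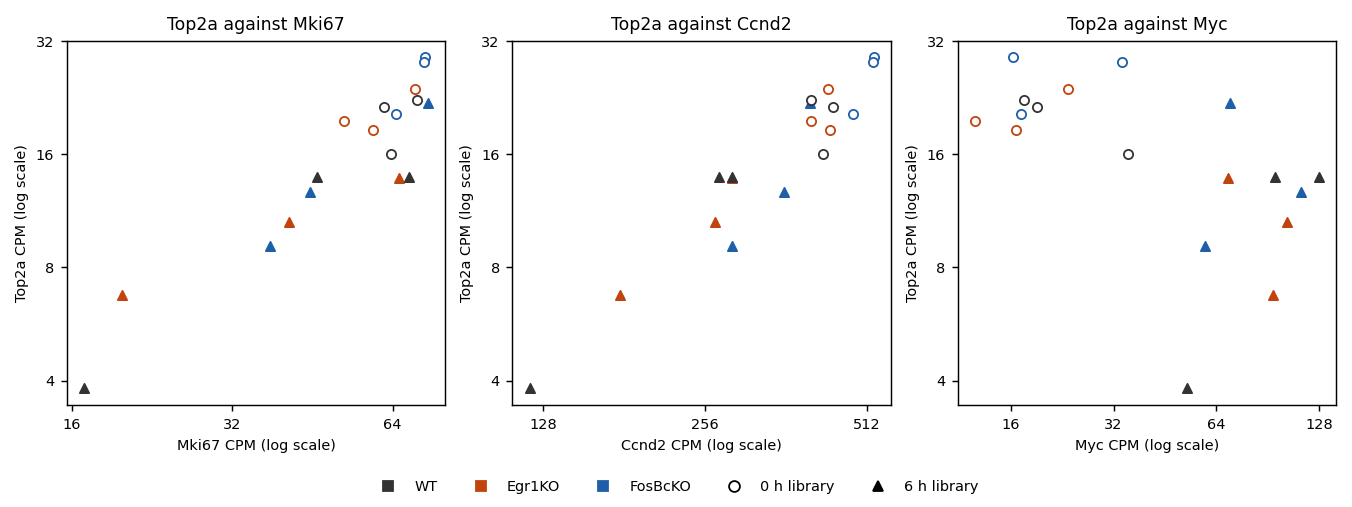
Top2a against Mki67, Ccnd2 and Myc in the 18 libraries, as CPM on log axes. Open circles are 0 h libraries, filled triangles 6 h libraries, and colours mark the genotypes. WT 6 h replicate 3, with Top2a at 3.81 CPM, is lowest for Mki67 and Ccnd2, while its Myc of 52.4 CPM is above every 0 h library.

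Ratios of counts within one library do not depend on library size or scaling, and 4 of them were compared after the values were seen. The ratio of Top2a to Mki67 was 0.314, 0.347 and 0.253 in WT at 0 h and 0.204, 0.302 and 0.226 at 6 h. In Egr1KO it was 0.338, 0.377 and 0.315 at 0 h and 0.211, 0.342 and 0.257 at 6 h, and in FosBcKO 0.393, 0.316 and 0.384 at 0 h and 0.242, 0.284 and 0.294 at 6 h. It was lower at 6 h by a mean log2 difference of -0.37 (two-sided exact permutation of time within genotype, p = 0.004, 0.008 adjusted over the 4 ratios), without overlap in FosBcKO only. The ratio of Ccnd3 to Ccnd2 was higher at 6 h by 0.51 (exact permutation p = 0.0005, adjusted 0.002), without overlap in WT and FosBcKO. Its highest value, 0.461, was in WT 6 h replicate 3. For Ccnd1 to Ccnd2 the difference was -0.062 (exact permutation p = 0.639), and for Cdkn1c to Cdkn1b it was -0.27 (exact permutation p = 0.131, adjusted 0.174). The smallest p these permutations can give is 0.00025. The ratios were picked with the levels known, where Ccnd2 had fallen more than Ccnd3 and Top2a more than Mki67 in each genotype. The adjustment over the 4 ratios does not cover that choice, so these p values are no independent test of a shift. The permutations did not pair libraries.

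**Figure D4:**
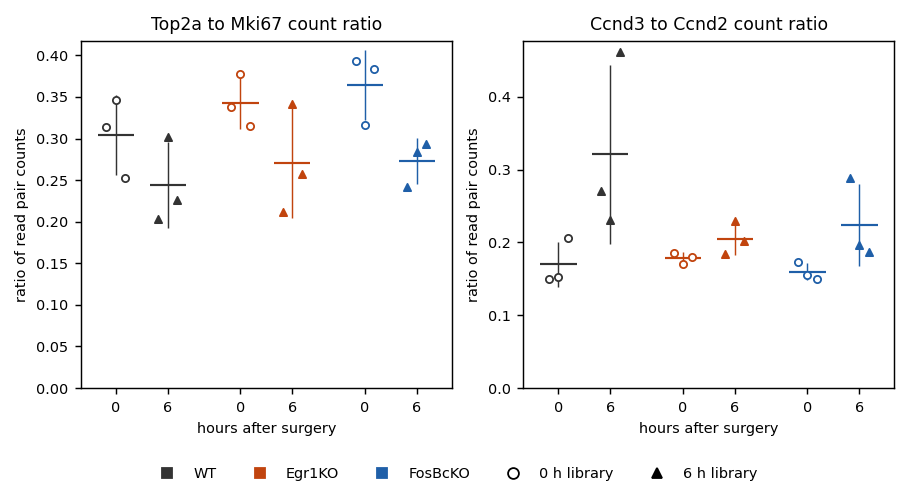
Ratio of read pair counts within each library, Top2a to Mki67 and Ccnd3 to Ccnd2, by hours after surgery on a linear axis from 0. Open circles are 0 h and filled triangles 6 h libraries, bars are means and whiskers SD over 3 libraries. The Top2a to Mki67 ratio lies between 0.204 and 0.342 at 6 h, and the Ccnd3 to Ccnd2 ratio reaches 0.461 in WT.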

How the data were processed

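RNA of lens capsules was measured in 18 libraries, grouped by the genotype and time of their labels. Libraries were stranded, paired-end and depleted of ribosomal RNA, and the authors used Hisat2 to align the pairs and HTSeq-count (union mode) to count them over Ensembl genes. The study's methods and the labels name different genome builds, so no coordinates are given. The tables deposited hold counts without any normalization, and 5 summary lines that name no gene were left out. PCR copies were not told apart, so intervals of counts cover counting error only.

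Genes were filtered with filterByExpr and scaled by TMM in edgeR 4.0.16 (R 4.3.3). Times were compared by the quasi-likelihood F-test on the 6 libraries of a genotype, genotypes by the exact test on 6 libraries, and interactions and the average over genotypes on all 18. These main fits did not pair libraries, and the replicate block added the library number to the fit. FDR values are Benjamini-Hochberg adjusted over all genes tested. SE and intervals come from the quasi-likelihood fit. Likeness used log2(CPM + 0.5) of genes with a mean CPM of at least 1. Alternatives were RLE size factors, library totals alone, no filter, DESeq2 1.42.0, the other edgeR test, all libraries in one fit, the replicate block and leaving out each library. The steps were tested on simulated data.

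All 10 genes are named in every comparison, and, by likeness, the IDs closest to Mki67. The genes and tests were chosen with earlier results of these data known. Other lists planned by gene name were not analysed, since the RefSeq gene table matched no ID and the study's supplementary tables, held here only in part, were not used for names. Of the 3 same-numbered pairs of 0 h and 6 h libraries, the correlation of deviations from group means was over 0.1 in 3 pairs in WT (0.118 to 0.315), 1 in Egr1KO (0.021 to 0.173) and 2 in FosBcKO (0.0972 to 0.252). Pairs with different numbers reached at most 0.042 in WT, 0.113 in Egr1KO and 0.067 in FosBcKO. By the cutoff of 0.1 the numbers were read as pairing libraries in WT. Libraries of 2 genotypes at one time, which come from different mice, also passed 0.1. They did so in 11 of 36 pairs with different numbers and in 5 of 18 with the same number, and reached 0.497. The cutoff therefore cannot settle pairing in WT. The same-numbered FosBcKO pairs also lay above all others of that genotype, so pairing in FosBcKO was not settled either.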

Additional observations from a re-analysis of the deposited data

Results flagged for a closer look

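Read pairs outside annotated genes are a measurement that no comparison of genes uses, and their share was above that of the 0 h controls in each genotype. The mean at 6 h was 25.4% in WT (0 h 17.8%), 21.5% in Egr1KO (0 h 11.2%) and 26.3% in FosBcKO (0 h 13.2%). Their part in the levels of the cell cycle genes was not tested.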

How the results depend on the processing

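In each genotype the direction of the 6 h difference held under every alternative run for the genes other than Pcna, and no gene passed in a knockout comparison or an interaction under any of them. Counts near the threshold moved. Apart from dropping the fold minimum, shares of all genes tested were not computed under these alternatives, so the counts below have no such baseline. In WT, DEGs numbered 2, with 1 without the filter, 4 with the replicate block and 1 to 2 with a library left out, and genes at the FDR alone numbered 3, with 5 by DESeq2, the exact test or the replicate block and 2 to 5 with a library left out. In Egr1KO, DEGs numbered 1, with 4 without the fold minimum and 1 to 5 with a library left out, and genes at the FDR alone 4, with 1 by RLE size factors and 1 to 8 with a library left out. In FosBcKO, DEGs numbered 1, with 4 without the fold minimum and 1 to 3 with a library left out, and genes at the FDR alone 4, with 2 when all 18 libraries were fitted together and 1 to 6 with a library left out. In the average over genotypes, DEGs numbered 2, with 8 without the fold minimum, 1 by RLE size factors or DESeq2 and 1 to 3 with a library left out. The causes were not tested.

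In the knockouts and the average, where numbers were not read as pairing, the replicate block let Ccnd3 (FDR = 0.0383) and Top2a (0.0436) pass in Egr1KO, Top2a (0.0159) in FosBcKO and Mki67 (-0.65, FDR = 0.0323) in the average, and it turned Pcna in WT to -0.027. Library totals alone moved the median of all genes between Egr1KO and WT at 6 h from 0.032 to -0.18, between FosBcKO and WT at 6 h from 0.0044 to -0.12 and in the Egr1KO interaction from 0.022 to -0.12. Between Egr1KO and WT at 6 h they turned Myc to -0.049, Cdkn1b to -0.078, Pcna to -0.13, Mki67 to -0.058 and Top2a to -0.025, between FosBcKO and WT at 6 h Mcm2 to -0.076, and in the Egr1KO interaction Top2a to -0.081. Without the filter Cdkn1b in the Egr1KO interaction was 0.035. This scaling was added after the data were seen.

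Log2 differences that changed sign with a library left out had missed the threshold throughout. At 6 h against 0 h in WT they ran for Pcna from -0.22 to 0.27. At 6 h against 0 h in FosBcKO they ran for Pcna from -0.51 to 0.0011. In the average over genotypes they ran for Pcna from -0.16 to 0.0029. Between Egr1KO and WT at 0 h they ran for Ccnd1 from -0.011 to 0.24, for Ccnd2 from -0.023 to 0.091, for Ccnd3 from -0.013 to 0.26, for Cdkn1c from -0.017 to 0.23, for Mcm2 from -0.064 to 0.19, for Top2a from -0.067 to 0.15 and for Mki67 from -0.21 to 0.034. Between Egr1KO and WT at 6 h they ran for Myc from -0.17 to 0.50, for Ccnd2 from -0.018 to 0.56, for Pcna from -0.17 to 0.30, for Mki67 from -0.34 to 0.63, for Top2a from -0.25 to 0.46, for Ccnd1 from -0.094 to 0.89 and for Cdkn1b from -0.21 to 0.33. Between FosBcKO and WT at 0 h they ran for Ccnd1 from -0.026 to 0.18, for Pcna from -0.16 to 0.033, for Cdkn1b from -0.069 to 0.0056, for Myc from -0.53 to 0.29 and for Mcm2 from -0.060 to 0.23. Between FosBcKO and WT at 6 h they ran for Pcna from -0.48 to 0.073, for Myc from -0.47 to 0.29, for Mcm2 from -0.10 to 0.19, for Mki67 from -0.078 to 0.83 and for Cdkn1b from -0.035 to 0.29. In the Egr1KO interaction they ran for Top2a from -0.33 to 0.32, for Cdkn1b from -0.37 to 0.15, for Pcna from -0.33 to 0.11, for Ccnd2 from -0.057 to 0.47, for Mki67 from -0.29 to 0.67 and for Ccnd1 from -0.26 to 0.71. In the FosBcKO interaction they ran for Myc from -0.46 to 0.40, for Ccnd3 from -0.087 to 0.19, for Mcm2 from -0.26 to 0.038, for Pcna from -0.51 to 0.045, for Mki67 from -0.25 to 0.65, for Top2a from -0.33 to 0.39 and for Cdkn1b from -0.079 to 0.22.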
